A study of Mus musculus with 6 samples.

Results

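Cdh23, Dpyd and Zfp516 are 3 protein-coding genes, of 55604 gene identifiers counted, that carried more reads in brain RNA of mice given 4-aminopyridine than in brain RNA of untreated mice. They were chosen for that difference: each passed edgeR's quasi-likelihood test between the groups in earlier work on these counts, so their own differences are described below without a test. The tested libraries came from 3 C57BL/6 mouse brain samples after intraperitoneal injection of 4-aminopyridine (4-AP, a blocker of voltage-gated potassium channels used here to bring about status epilepticus), and the comparison libraries from 3 untreated C57BL/6 brain samples. All 6 total RNA samples were digested with RNase R, which digests linear RNA from its 3′ end and leaves circular RNA. The labels do not give the part of the brain, the sex, the age, the dose or the time from injection to sampling, and do not tie the samples to individual animals. The p-values thus rest on the spread from sample to sample, which may be technical.

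Cdh23 encodes cadherin 23, a very long calcium-dependent adhesion protein that pairs with protocadherin 15 to form the tip links of inner ear hair cells. The C57BL/6 strain, from which all samples came, carries a Cdh23 allele that predisposes to age-related hearing loss. Dpyd encodes dihydropyrimidine dehydrogenase, which carries out the first and rate-limiting step in the breakdown of uracil and thymine, a route that ends in beta-alanine; in people the enzyme also inactivates the drug fluorouracil, and its inherited deficiency can be accompanied by seizures. Zfp516 encodes a zinc finger transcription factor that in mouse brown fat acts with Prdm16 to switch on Ucp1, and that has been found with the CtBP and LSD1 corepressors in human cells. The counts add up all reads of a gene, so none of the values below can be assigned to a circular or a linear RNA, and in bulk tissue fewer cells of a type and less RNA per cell cannot be told apart.

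Cdh23 lies on the minus strand of chromosome 10 (60302748 to 60696490, mm10) and Dpyd on the plus strand of chromosome 3 (118562129 to 119432924). Cdh23 and Dpyd were the members with an entry among the RefSeq promoters (GRCm38.p6). The 250 bases upstream of each RefSeq start are shown, 5′ to 3′ along the gene's strand. These are the stretches from which genes that moved together would be read for shared motifs. They are chr10:60696491-60696740 and chr3:118561930-118562179, and capitals mark matches to any of the motifs searched on both strands. The Dpyd window runs past the gene start given above, so its last bases lie within those gene coordinates.
Cdh23: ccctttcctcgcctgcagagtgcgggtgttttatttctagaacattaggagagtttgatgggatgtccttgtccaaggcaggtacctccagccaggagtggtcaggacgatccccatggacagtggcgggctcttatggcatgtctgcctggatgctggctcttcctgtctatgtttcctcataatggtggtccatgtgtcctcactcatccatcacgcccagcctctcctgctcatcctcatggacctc
Dpyd: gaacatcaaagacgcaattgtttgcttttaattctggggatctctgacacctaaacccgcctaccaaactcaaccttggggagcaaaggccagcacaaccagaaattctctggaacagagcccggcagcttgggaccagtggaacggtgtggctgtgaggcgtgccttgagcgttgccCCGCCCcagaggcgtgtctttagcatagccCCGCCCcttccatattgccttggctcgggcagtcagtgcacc

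The motifs searched were the TATA box (TATAAA), the cyclic AMP response element (TGACGTCA), the AP-1 site (TGANTCA), the GC box (GGGCGG), the CCAAT box (CCAAT) and the E-box (CACGTG). Dpyd held 2 GC boxes, both on the opposite strand, whose matches begin 72 and 42 bases upstream of the RefSeq start. The nearer match lies within the gene coordinates given above. Of the 32841 promoters searched, 32.7% held at least 1 GC box. Cdh23 held no match to any of the 6 motifs, and Dpyd none to the other 5. The TATA box was found in 12.4% of promoters, the cyclic AMP response element in 1.55%, the AP-1 site in 6.75%, the CCAAT box in 33.9% and the E-box in 6.02%. The pair therefore shared no match in these windows. The GC content was 54.4% for Cdh23 and 56.4% for Dpyd, against a median of 52.4% over all promoters. The ratio of observed to expected CpG was 0.27 for Cdh23 and 0.51 for Dpyd, on either side of the median of 0.37.

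Library totals ran from 1507882 to 2721287 counts in 4-AP brain and from 2355610 to 3409055 in control brain. A count of 3 stood for 0.778 to 2.19 CPM, that is, reads per 1000000 of the library size as scaled by the trimmed mean of M-values. Of 11388 genes with enough reads to test, 38 were called higher and 58 lower by edgeR (adjusted p below 0.05). Markers of brain cells were present throughout, among them Slc17a7 of cortical excitatory neurons, Mbp of oligodendrocytes and Slc1a2 of astrocytes. Control replicate 1 stood apart in region markers: its 12 striatal markers summed to 208 CPM, against 946 and 1556 CPM in the other controls, and its 14 thalamic markers to 364 CPM, against 135 and 161 CPM. 4-AP replicate 3 held transcripts of fat cells that were scarce elsewhere, as given with Zfp516.

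Cdh23 had the largest difference of the trio on the log2 scale. It had 78.2, 97.9 and 94.3 CPM in 4-AP replicates 1, 2 and 3, against 32.4, 14.5 and 25.9 CPM in control replicates 1, 2 and 3. The groups did not overlap, and the lowest 4-AP library lay 2.42-fold above the highest control. These levels rested on 120, 274 and 129 reads in 4-AP brain and on 103, 56 and 58 reads in control brain. Its mean was 90.1 ± 10.5 CPM in 4-AP brain and 24.3 ± 9.03 CPM in control brain (SD, n = 3 each), and the log2 fold change was 1.91 (SE 0.24). Among controls, replicate 2 was low beyond counting error, with an exact Poisson 95% interval of 11.0 to 18.9 CPM against 19.7 to 33.5 CPM in replicate 3. Such intervals cover counting error only, because the reads carry no molecular identifiers and need not be independent molecules.

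Dpyd had 150, 131 and 115 CPM in 4-AP replicates 1, 2 and 3, against 27.7, 37.3 and 58.9 CPM in control replicates 1, 2 and 3. All 4-AP libraries lay above all controls, the lowest of them 1.95-fold above control replicate 3, which was the highest control. The reads behind these levels numbered 230, 367 and 157 in 4-AP brain and 88, 144 and 132 in control brain. The mean was 132 ± 17.6 CPM in 4-AP brain and 41.3 ± 16 CPM in control brain (SD, n = 3 each), with a log2 fold change of 1.70 (SE 0.22). The controls differed among themselves by more than counting error: control replicate 3 had a 95% interval of 49.3 to 69.9 CPM and control replicate 1 of 22.2 to 34.1 CPM.

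Zfp516, on the plus strand of chromosome 18 (82910663 to 83005314, mm10), was the most abundant of the trio and had the smallest difference. It had 299, 294 and 388 CPM in 4-AP replicates 1, 2 and 3, against 195, 129 and 131 CPM in control replicates 1, 2 and 3. The groups again did not overlap, with the lowest 4-AP library 1.5-fold above control replicate 1. The libraries held 459, 822 and 531 reads of the gene in 4-AP brain and 622, 496 and 294 in control brain. Its mean was 327 ± 53.0 CPM in 4-AP brain and 152 ± 37.9 CPM in control brain (SD, n = 3 each), and its log2 fold change was 1.10 (SE 0.17). Within each group a single library stood above the others beyond counting error: 4-AP replicate 3 (95% interval 356 to 423 CPM, against at most 328 CPM in the other 4-AP libraries) and control replicate 1 (180 to 211 CPM, against at most 147 CPM in the other controls).

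Across all tested genes, 0.334% were called higher in 4-AP brain, and in 8.36% every 4-AP library lay above every control; since the trio was picked from this contrast, nothing follows from their share. Among the 38 genes called higher, ordered by mean CPM over the 6 libraries, Zfp516 stood at place 7, Dpyd at 15 and Cdh23 at 22. Their mean levels lay at percentiles 94.8, 81.8 and 72.9 of all tested genes.

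**Figure D1:**
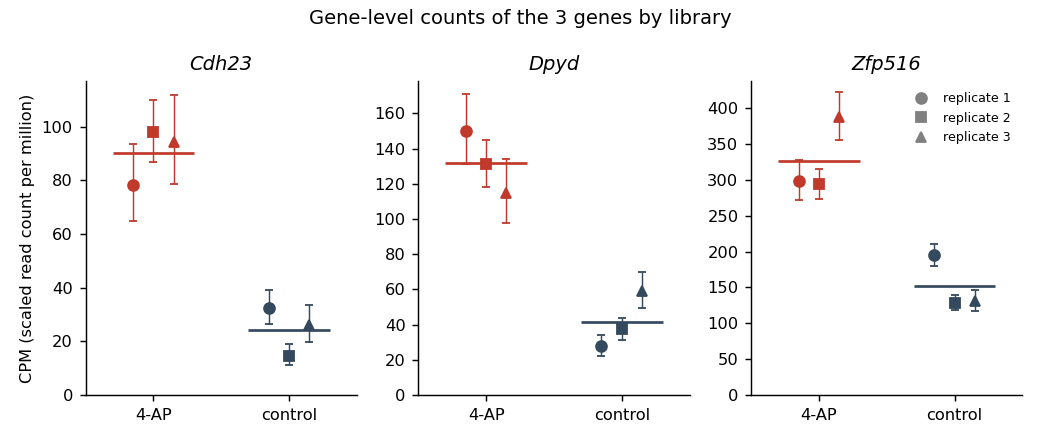
Scaled read counts (CPM, vertical axis) of Cdh23, Dpyd and Zfp516 in 4-AP and control libraries (horizontal axis); points are libraries with exact Poisson 95% counting intervals, symbols give the replicate number and horizontal lines the group means. In each gene the 3 4-AP libraries lie above the 3 controls, with Cdh23 at 78.2 to 97.9 CPM against 14.5 to 32.4 CPM.

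Per kilobase of exon the order of levels was the same in every library. Zfp516 averaged 39.5 ± 6.40 RPKM (CPM per kilobase of exon) in 4-AP brain and 18.3 ± 4.58 RPKM in control brain. Dpyd followed with 14.9 ± 1.98 RPKM in 4-AP brain and 4.65 ± 1.80 RPKM in control brain, and Cdh23 was lowest with 5.32 ± 0.618 RPKM in 4-AP brain and 1.43 ± 0.533 RPKM in control brain (SD, n = 3 each). Neighbours in this order were further apart than their spread in both groups. The lowest Zfp516 level of any library, 15.5 RPKM, lay within the range of Dpyd in 4-AP brain, 12.9 to 16.9 RPKM.

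The trio shared a long genomic span but not a large number of exons. Dpyd spans 871 kb, Cdh23 394 kb and Zfp516 94.7 kb, at percentiles 99.3, 97.1 and 80.5 of the tested genes. The longest annotated transcripts of Cdh23 and Dpyd have 71 and 23 exons, whereas that of Zfp516 has 6, which placed it at percentile 31.2. Zfp516 is therefore long, but with few exons for a tested gene. Of the 38 genes called higher, 19 were in the longest 20% of genes by span, 0 in the next 20% and 12 in the shortest 20%. These were 0.834% of 2277 genes in the longest and 0.527% of 2276 genes in the shortest 20%, beside 0.334% over all tested genes. The 19 include the trio, which was chosen for its rise. Of the 58 genes called lower, 17 were in the longest 20%, 10 in the next 20% and 10 in the shortest 20%. The median log2 fold change of the longest 20% was 0.03, against -0.01 over all tested genes. An offset fitted to exonic length left the log2 fold changes at 1.92 for Cdh23, 1.68 for Dpyd and 1.09 for Zfp516.

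**Figure D2:**
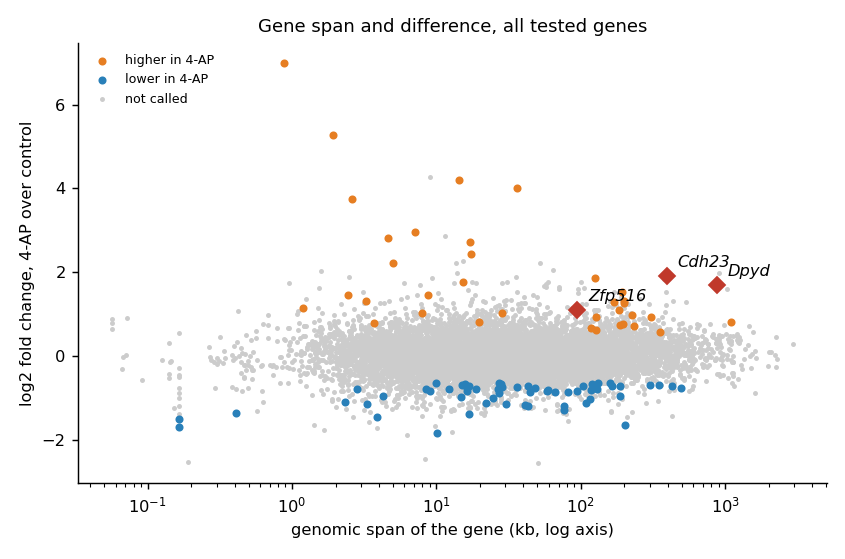
Log2 fold change of 4-AP over control (vertical axis) against genomic span in kb (horizontal log axis) for the tested genes with an annotated span; orange and blue points passed edgeR's test, and diamonds mark Cdh23, Dpyd and Zfp516. The trio sits at 94.7 kb and above, in the longest 20% of genes, where the median log2 fold change was 0.03.

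Genes beside or within the trio did not pass the test. Vsir, the immune checkpoint receptor gene that lies inside Cdh23 on the other strand, averaged 47.9 ± 7.05 CPM in 4-AP brain and 44.8 ± 5.57 CPM in control brain (SD, n = 3 each; log2 fold change 0.10, SE 0.20). It shares 0 exonic bases with Cdh23. Psap, which encodes the lysosomal precursor prosaposin and ends 0.151 kb from Cdh23, had 1039 ± 60.9 CPM in 4-AP brain and 1060 ± 52.1 CPM in control brain (log2 fold change -0.03, SE 0.13). Slc29a3, a nucleoside transporter gene on the other side, was at 0.18 (SE 0.40). Around Dpyd, the sorting nexin gene Snx7 was at 0.15 (SE 0.27) and the splicing regulator gene Ptbp2 at 0.40 (SE 0.22). Around Zfp516, the zinc finger gene Zfp236 was at 0.27 (SE 0.15) and the zinc finger gene Tshz1 at -0.33 (SE 0.24). Adjusted p-values of these 7 genes by edgeR ran from 0.455 for Ptbp2 to 0.96 for Psap.

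The partners of Cdh23 listed as tip-link and Usher syndrome genes varied in sign and size. Of 17 such genes other than Cdh23, 10 had enough reads to test, 0 were called higher and 1 was called lower, beside 0.334% higher and 0.509% lower over all tested genes; the median log2 fold change was 0.20. Pcdh15, the tip-link partner of cadherin 23, had 114, 98.3 and 105 CPM in 4-AP replicates 1, 2 and 3, against 72.6, 77.0 and 62.0 CPM in control replicates 1, 2 and 3. The groups of Pcdh15 did not overlap, as held in this direction for 8.36% of all tested genes. Its log2 fold change of 0.57 (SE 0.17) did not pass (adjusted p = 0.0999 by edgeR). Tmc1, a subunit of the hair cell transduction channel, was at 1.53 (SE 0.59) with 31 reads in 4-AP brain and 18 in control brain, and the actin bundling gene Espn at -0.62 (SE 0.50); neither passed. The Usher syndrome gene Adgrv1 was at 1.29 (SE 0.54), the calcium-binding protein gene Cib2 at 0.98 (SE 0.51) and the transduction complex gene Tmie at 0.96 (SE 0.53), each on at most 49 reads a group and without passing. Pdzd7 was at -0.56 (SE 0.53), Myo7a at -0.27 (SE 0.23) and Whrn at -0.17 (SE 0.38), also without passing. Of the 10 tested genes, 5 lay above 0. Whether these genes differed from Cdh23 was not tested. Atp2b2, the plasma membrane calcium pump that works beside the transduction channel in hair cells and is abundant in neurons, fell to 664 ± 49.3 CPM in 4-AP brain, against 1073 ± 208 CPM in control brain (SD, n = 3 each; log2 fold change -0.69, SE 0.15; adjusted p = 0.0327 by edgeR). It no longer passed when 4-AP replicate 1 (adjusted p = 0.0858 by edgeR), 4-AP replicate 2 (0.071), 4-AP replicate 3 (0.145) or control replicate 3 (0.19) was left out, and held without control replicate 1 or 2 (lowest adjusted p = 0.0278). Summed over the 17 genes, of which Atp2b2 was the most abundant, the level was 795 to 901 CPM in 4-AP brain. In control brain this sum was 1014 to 1423 CPM.

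Among the wider cadherin superfamily, 51 genes besides Cdh23 were listed and 38 tested. The median log2 fold change was -0.02, 18 members lay above 0, 1 was called higher and 0 lower. Over all tested genes the shares were 0.334% higher and 0.509% lower. The gene that rose was Fat1, a giant cadherin, at 282 ± 28.0 CPM in 4-AP brain and 178 ± 31.9 CPM in control brain (SD, n = 3 each; log2 fold change 0.67, SE 0.15; adjusted p = 0.0389 by edgeR). With 1 library left out at a time it passed once in 6 fits, without control replicate 1 (adjusted p = 0.00871 by edgeR), and missed the threshold without control replicate 2 (0.127), control replicate 3 (0.194) or 4-AP replicate 1 (0.0769), 2 (0.0667) or 3 (0.171). Scaling by total counts also ended it (adjusted p = 0.226 by edgeR). The calsyntenin genes Clstn2 and Clstn1, which encode synaptic cadherins, had the smallest p-values below 0, at -0.79 (SE 0.20; adjusted p = 0.0607 by edgeR) and -0.51 (SE 0.14; adjusted p = 0.0742 by edgeR). Summed over the 51 genes, the level was 5896 to 6772 CPM in 4-AP brain and 6953 to 7570 CPM in control brain. Clstn1 was the most abundant of them, at 1651 ± 97.5 CPM in 4-AP brain and 2358 ± 55.1 CPM in control brain.

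The enzymes that follow Dpyd in pyrimidine breakdown had almost no reads. Dpys, which encodes the second enzyme of the route, had 1 read in all 4-AP libraries together and 0 in the controls. Upb1, which encodes the third, had 4 reads in 4-AP brain and 3 in control brain. A change in either was not detectable at this depth. Of 14 genes of pyrimidine breakdown and beta-alanine handling besides Dpyd, 5 were tested and 0 were called in either direction. Over all tested genes, too, only 0.334% were called higher and 0.509% lower. All 5 lay above 0, with a median log2 fold change of 0.46. Abat, which encodes the transaminase of GABA and beta-alanine, had 293 ± 31.2 CPM in 4-AP brain and 214 ± 24.7 CPM in control brain (SD, n = 3 each; log2 fold change 0.46, SE 0.15; adjusted p = 0.136 by edgeR). Upp2, a uridine phosphorylase gene, had 90.7 ± 4.87 CPM in 4-AP brain and 60.5 ± 21.8 CPM in control brain (SD, n = 3 each; log2 fold change 0.58, SE 0.21; adjusted p = 0.196 by edgeR). Summed over the 14 genes, the level was 420 to 471 CPM in 4-AP brain and 282 to 362 CPM in control brain. Of 16 genes of pyrimidine synthesis and salvage, 13 were tested and 0 called, with a median of -0.02. The kinase genes Uck1 and Tk2 were at 0.45 (SE 0.23) and 0.44 (SE 0.22), and Cad, which starts pyrimidine synthesis, and Cmpk1 at -0.32 (SE 0.25) and -0.36 (SE 0.29).

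The partners listed for Zfp516 were centred on 0. All 18 genes of the CtBP and LSD1 corepressor list were tested, 0 were called and the median log2 fold change was -0.02. The E-box repressor gene Zeb1 came nearest, with 250 ± 16.3 CPM in 4-AP brain and 169 ± 19.0 CPM in control brain (SD, n = 3 each; log2 fold change 0.57, SE 0.14; adjusted p = 0.0607 by edgeR). The corepressor genes Phf21a and Gse1 were at 0.36 (SE 0.15) and -0.41 (SE 0.23), and the repressor gene Zeb2 at -0.41 (SE 0.21). Kdm1a, which encodes LSD1, was at -0.04 (SE 0.18). Of 11 brown fat programme genes besides Zfp516, 6 were tested and 0 called (median -0.03). Beside both lists stand shares of 0.334% called higher and 0.509% lower over all tested genes. Prdm16, the partner of Zfp516 in brown fat, was at 0.08 (SE 0.40), the coactivator gene Ppargc1a at 0.09 (SE 0.24), the nuclear receptor genes Ppara and Pparg at 0.52 (SE 0.42) and -0.39 (SE 0.27), and the thyroid hormone deiodinase gene Dio2 at -0.73 (SE 0.22).

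Ucp1, which encodes the brown fat uncoupling protein that Zfp516 switches on in mouse brown fat, had too few libraries with reads to be tested. It had 0, 0 and 87 reads in 4-AP replicates 1, 2 and 3, against 1, 0 and 0 reads in control replicates 1, 2 and 3. Cidea, a lipid droplet gene of brown fat, had 5, 3 and 26 reads in the same 4-AP libraries and 2, 1 and 0 in the controls. Plin1 and Fabp4, general fat cell genes that were looked up after these values had been seen, had 40 and 17 reads in 4-AP replicate 3 and at most 1 and 0 in any other library. The library with these reads was also the one with the highest Zfp516 level, 388 CPM. Without it, the log2 fold change of Zfp516 was 0.96, that of Dpyd 1.78 and that of Cdh23 1.88. The part of these transcripts in the Zfp516 level of that library was not tested.

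**Figure D3:**
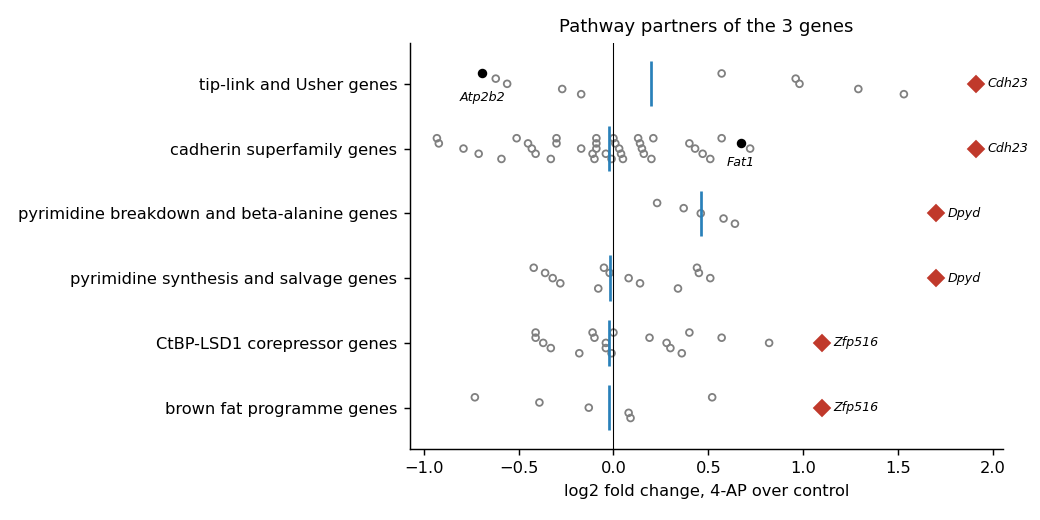
Log2 fold change of 4-AP over control (horizontal axis) for the tested members of 6 pathway lists (rows); open circles did not pass edgeR's test, filled circles did, blue bars are list medians without the trio, and red diamonds mark Cdh23, Dpyd and Zfp516. The medians lie between -0.03 and 0.46, left of the diamonds at 1.10 to 1.91.

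Levels of subcortical region markers were set beside the trio library by library. The 28 hypothalamic markers summed to 394, 287 and 584 CPM in 4-AP replicates 1, 2 and 3, against 103, 49.3 and 95.9 CPM in control replicates 1, 2 and 3. The groups did not overlap, and the ratio of the group means, 5.1, exceeded those of Cdh23 (3.72), Dpyd (3.19) and Zfp516 (2.15). Baiap3, Magel2 and Gpr101 weighed most on this sum, whose mean was 422 CPM in 4-AP brain and 82.7 CPM in control brain. They averaged 180, 81.3 and 39.2 CPM in 4-AP brain and 38.5, 11.5 and 5.22 CPM in control brain. Baiap3 itself was not called (adjusted p = 0.167 by edgeR). Of 9 tested hypothalamic markers 6 were called higher and 0 lower, beside 0.334% and 0.509% over all tested genes. Their median log2 fold change was 2.97. The list was drawn up with several of these rises known and is no independent evidence of their direction. Oxt (36 reads in 4-AP brain, 0 in control brain), Avp (77 and 3) and Irs4 (63 and 6) would not have passed the read filter on control reads alone. The filter thus favoured markers high in 4-AP brain and helped to set the number called and the median. With no filter on low counts 10 of the markers were called. DESeq2 called 2 and gave no adjusted p for 7, of which 5 were called by edgeR. Ghrh, Kiss1, Rax, Hmx2 and Hmx3 had 0 reads in every library, which is not read as absence of the RNA. The 20 midbrain and hindbrain markers also separated the groups, at 41.1 to 81.1 CPM in 4-AP brain and 25.4 to 37.9 CPM in control brain, with 0 of 4 tested members called. The 14 thalamic markers overlapped, at 205, 364 and 433 CPM in 4-AP replicates 1, 2 and 3, against 364, 135 and 161 CPM in control replicates 1, 2 and 3. Of 10 tested thalamic markers 0 were called by edgeR, against 2 higher without control replicate 1 and 5 higher without replicate 1 of both groups.

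Other region and cell type lists were summed in the same way. The 18 markers of cortical and hippocampal excitatory neurons summed to 1908 to 2577 CPM in 4-AP brain and 3212 to 3371 CPM in control brain. Of 17 tested members 4 were called lower by edgeR, beside 0.509% over all tested genes. The number of these markers called lower was 9 with total counts only, 9 with no filter on low counts and 9 with the replicate block. It was 1 without 4-AP replicate 2, and 0 without 4-AP replicate 3, control replicate 2 or control replicate 3. Striatal markers ranged from 951 to 1333 CPM in 4-AP brain, within the control range of 208 to 1556 CPM. The part of brain region in the differences of the trio was not tested. Choroid plexus and ependymal markers lay at 28.7 to 104 CPM in 4-AP brain and 11.9 to 26.8 CPM in control brain, microglia markers at 488 to 595 CPM in 4-AP brain and 414 to 483 CPM in control brain, and astrocyte markers at 2194 to 2537 CPM in 4-AP brain and 2829 to 2970 CPM in control brain. Single genes weighed on these sums. The astrocyte gene Slc1a2 averaged 1132 CPM in 4-AP brain and 1748 CPM in control brain. The microglia gene Cx3cr1 averaged 374 and 252 CPM, and the choroid plexus gene Ttr 22.5 ± 28.2 and 1.46 ± 1.57 CPM (SD, n = 3 each). Of 10 tested astrocyte markers 7 lay above 0 (median log2 fold change 0.11), and of 10 tested microglia markers 5 (median 0.01). Of 3 tested choroid plexus and ependymal markers 3 did (median 1.68). Of these, Ttr (172 reads in 4-AP brain, 11 in control brain) would not have passed the read filter on control reads alone. Oligodendrocyte, oligodendrocyte precursor, endothelial and mural, cerebellar and GABAergic neuron markers overlapped between the groups.

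Within the groups the members of the trio did not all follow the same marker list. Among controls, Zfp516 was highest in replicate 1, the library with the highest thalamic and hypothalamic sums. Its levels differed by less than counting error between replicates 2 and 3. Cdh23 was lowest in replicate 2, which had the lowest hypothalamic and thalamic sums, while its counting intervals in replicates 1 and 3 overlapped. The hypothalamic sums of control replicates 1 and 3 were close, at 103 and 95.9 CPM, and their order turned when the mean log2 CPM of the same markers was used (0.43 in replicate 1 and 0.80 in replicate 3). Dpyd was instead lowest in control replicate 1 and highest in control replicate 3, the same order as the striatal sums of 208, 946 and 1556 CPM. In 4-AP replicates 1, 2 and 3 the orders differed, with Dpyd at 150, 131 and 115 CPM beside striatal sums of 951, 1333 and 999 CPM. Among 4-AP libraries, Zfp516 was highest in replicate 3, which likewise had the highest hypothalamic and thalamic sums. Its levels of 299 and 294 CPM in replicates 1 and 2 differed by less than counting error. Dpyd ran the other way from the thalamic sums, with 150 CPM beside 205 CPM in replicate 1 and 115 CPM beside 433 CPM in replicate 3. Cdh23 had 97.9 CPM in replicate 2, where the hypothalamic sum was lowest, and 94.3 CPM in replicate 3, where it was highest. Midbrain and hindbrain sums of 41.1, 81.1 and 76.8 CPM in 4-AP replicates 1, 2 and 3 followed the order of Cdh23. Its counting intervals in those libraries overlapped, and neither Dpyd nor Zfp516 had that order. By mean log2 CPM of the same markers, 4-AP replicate 3 (1.92) stood above 4-AP replicate 2 (1.44). Among controls, the midbrain and hindbrain sum was lowest in replicate 2 (25.4 CPM), as was Cdh23, and highest in replicate 3 (37.9 CPM), as was Dpyd. Control replicate 1 and 4-AP replicate 2 had the same thalamic sum to 3 digits, 364 CPM, while Cdh23 stood at 97.9 CPM in 4-AP replicate 2 and 32.4 CPM in control replicate 1. Their other sums differed: hypothalamic 287 CPM in 4-AP replicate 2 and 103 CPM in control replicate 1, midbrain and hindbrain 81.1 and 32.1 CPM. Striatal sums were 1333 and 208 CPM in the same order. The part of these differences in the Cdh23 levels was not tested. With 3 libraries in each of 2 separate groups, no correlation between the trio and the markers was tested.

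**Figure D4:**
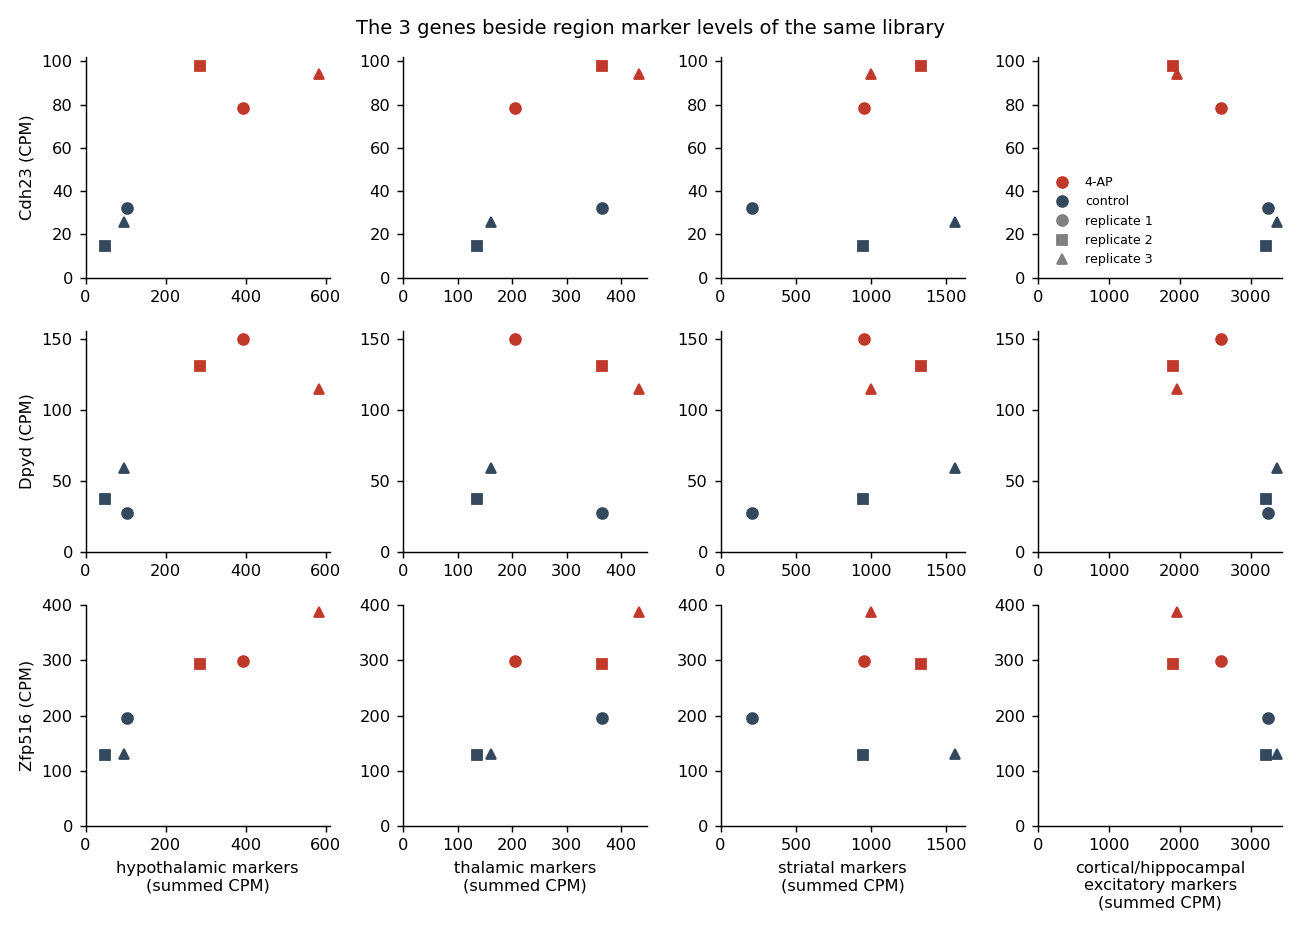
CPM of Cdh23, Dpyd and Zfp516 (rows, vertical axes) against the summed CPM of hypothalamic, thalamic, striatal and cortical or hippocampal excitatory markers (columns, horizontal axes) in the same library; red is 4-AP, dark blue control, and symbols give the replicate number. Hypothalamic sums separate the groups (287 to 584 CPM against 49.3 to 103 CPM), thalamic and striatal sums overlap.

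The genes most like each member were taken by Pearson's r of log2 CPM over the 6 libraries, among 9237 other tested genes with an established symbol and a mean log2 CPM of at least 3. For Cdh23 these were Dgat1 (r = 0.994), which makes triglycerides, Hap1 (0.99), the huntingtin-associated trafficking protein, Naa16 (0.99), Gk5 (0.986) and Zranb1 (0.984). Hap1 had 361 CPM in 4-AP brain and 130 CPM in control brain, a log2 fold change of 1.47, whereas the other 4 lay between 0.46 and 0.65. For Dpyd they were Ypel5 (r = 0.998), the peroxiredoxin gene Prdx1 (0.988), the mitochondrial gene Apoo (0.988), Emc2 (0.986) and the axon guidance receptor gene Robo1 (0.981), with log2 fold changes from 0.38 to 1.01. For Zfp516 they were Fam151b (r = 0.998), the ubiquitin ligase gene Rnf180 (0.996), the tetraspanin gene Cd81 (0.993), the mitochondrial ribosome gene Mrps2 (0.992) and Adarb2 (0.991), with log2 fold changes from 0.32 to 1.54. An r above 0.95 was reached by 58 genes with Cdh23, 34 with Dpyd and 75 with Zfp516. Between members r was 0.951 for Cdh23 and Zfp516, 0.853 for Cdh23 and Dpyd, and 0.756 for Dpyd and Zfp516. All these values contain the group difference the trio was chosen for and share the same 6 libraries, so they are a description.

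The size of each difference moved with single libraries. Without control replicate 1 the log2 fold change was 2.22 for Cdh23, 1.49 for Dpyd and 1.34 for Zfp516. Without control replicate 2 it was 1.64 for Cdh23, 1.65 for Dpyd and 1.01 for Zfp516, and without control replicate 3 it was 1.96 for Cdh23, 2.01 for Dpyd and 1.01 for Zfp516. Dpyd thus lay slightly above Cdh23 without control replicate 2 or control replicate 3, by less than the SE of either gene. Over 17 alternative settings the log2 fold change stayed between 1.64 and 2.29 for Cdh23, between 1.38 and 2.01 for Dpyd and between 0.88 and 1.39 for Zfp516.

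**Figure D5:**
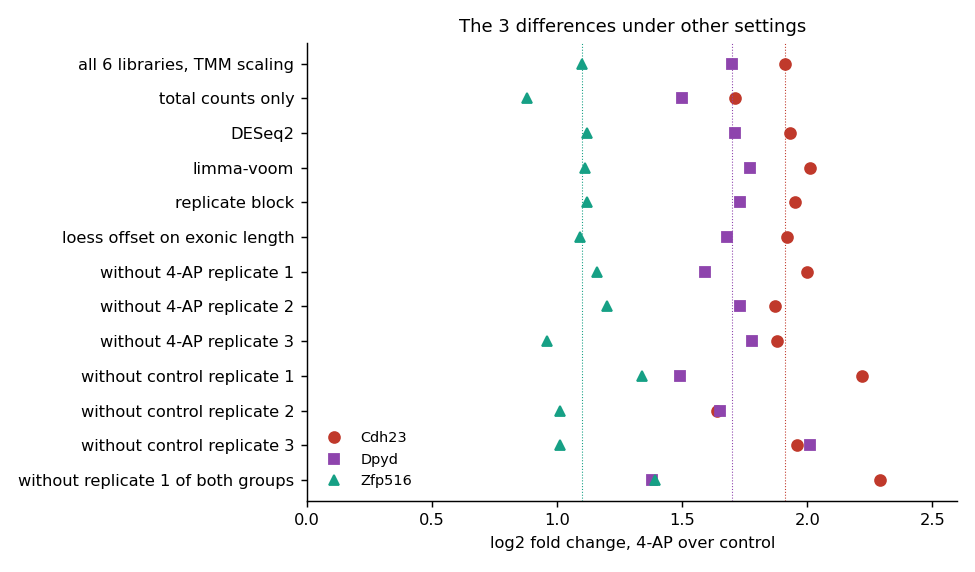
Log2 fold change of 4-AP over control (horizontal axis) of Cdh23, Dpyd and Zfp516 under the standard settings and 12 of the alternatives (rows); dotted lines mark the standard values of 1.91, 1.70 and 1.10. Every value lies above 0, and Cdh23 and Dpyd change places without control replicate 2 or control replicate 3.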

How the data were processed

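RNase R-treated RNA from 3 4-AP and 3 control mouse brain samples was counted by gene. The deposited tables hold whole-number read counts for 55604 versioned Ensembl identifiers, 1 table per library. The submitters' processing notes name STAR 2.5.3a, featureCounts and mm10. Which annotation release was used, whether strand was considered and how multi-mapping reads were treated is not given in the sources used here. Identifiers were matched without version to GENCODE M21, of the same assembly; 54809 matched, 53947 with the version. None of the trio shares exonic bases with another annotated gene.

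Genes kept by filterByExpr (minimum count 10, minimum total 15) were scaled by the trimmed mean of M-values. The test was that of edgeR 4.0.16 in R 4.3.3 (robust quasi-likelihood test, group as the only term, Benjamini-Hochberg adjustment over 11388 genes, threshold 0.05). Standard errors are the absolute log2 fold change over the square root of F. Log2 CPM used a prior count of 2. The biological coefficient of variation was 0.18. The procedure was tested on simulated counts. Each library was kept as a replicate, since no pair agreed within sampling noise (chi-square per degree of freedom of at least 7.79). The members and gene lists were chosen with earlier results of these data known. Besides the trio, the text names the 5 most similar genes per member and the flanking and overlapping tested genes. For pathway lists it names each called gene and those with the smallest p in each direction. All tested tip-link and Usher genes are named. Kdm1a, Prdm16, Dpys, Upb1, Ucp1 and Cidea were added from the lists for their role or counts. Marker lists are given by counts and sums, and single markers are named for their abundance or read counts. Promoter sequences are RefSeq's (GRCm38.p6). Alternatives were other scalings, DESeq2 1.42.0, limma-voom (limma 3.58.1), other filters, a block on the replicate number, exclusion of mitochondrial, ribosomal protein and structured RNA genes, a length offset (loess, span 0.5) and fits without single libraries.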

Additional observations from a re-analysis of the deposited data

How the results depend on the processing

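The log2 fold changes of Cdh23, Dpyd and Zfp516 kept their sign in all 51 combinations of gene and alternative, and moved by no more than the SD of log2 CPM pooled over the 2 groups (0.43, 0.41 and 0.29). Some moves exceeded the smaller SD of the 4-AP libraries alone (0.17, 0.19 and 0.23). With 1 library left out they ran from 1.64 to 2.22 for Cdh23, from 1.49 to 2.01 for Dpyd and from 0.96 to 1.34 for Zfp516. Counts over all genes moved more. In place of 38 higher and 58 lower genes there were 80 and 99 with DESeq2, 131 and 197 with no filter on low counts, 26 and 293 with total counts only and 112 and 153 with the replicate block; 94 were lower with the length offset and 28 without replicate 1 of both groups. Leaving out 1 library gave 16 to 105 higher and 10 to 54 lower. Scaling by total counts moved the median of all genes to -0.22, so directions are relative to the bulk of genes. Of the pathway lists, 1 gene was called higher and 1 lower; these became 2 higher with upper quartile scaling, 0 and 8 with total counts only, 3 and 3 with DESeq2, 2 lower with limma-voom, 2 and 5 with no filter, 2 and 4 with the replicate block, and 0 lower without replicate 1 of both groups. With 1 library left out they were 0 to 3 higher and 0 to 1 lower. The hypothalamic marker difference was 2.36 as log2 of the summed CPM and 1.78 as mean log2 CPM. Except where fewer samples or more genes entered, the cause was not tested. The labels do not say what samples with the same number share, although the design text of the series calls the tissue paired. Their deviations from the group means correlated at -0.000869, 0.114 and 0.0294 for replicates 1, 2 and 3. Libraries with different numbers correlated at -0.108 to 0.0665. With so few pairs these values cannot decide whether the samples were paired, and the standard fit did not pair them. With the replicate block the log2 fold changes were 1.95 for Cdh23, 1.73 for Dpyd and 1.12 for Zfp516. Depth limits the low-count partners: a count of 3 is up to 2.19 CPM.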
